A study of Mus musculus with 16 samples.

Results

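The comparison described here is early mRNA loss between genotypes. For each gene it takes the log2 change from 0 to 1 h after transcription was blocked in libraries labelled Nat10-deficient (KO) and subtracts the same change in wild-type (WT) libraries. The rule takes 8 of the 16 libraries of the series, namely 2 KO libraries at 1 h, 2 KO libraries at 0 h, 2 WT libraries at 1 h and 2 WT libraries at 0 h. Polyadenylated RNA came from mouse bone marrow cells labelled as long-term haematopoietic stem cells (LT-HSCs), the rarest self-renewing cells of the marrow, which were sorted after lineage-depleted marrow had been cultured with cytokines. All 4 groups carry 5 µM actinomycin D in their treatment label, with 0 h as the start. The labels give the genotype as a deficiency of Nat10 and name neither the allele, a Cre driver nor the age of the animals. The sample titles name 32D, a mouse myeloid cell line, which the cell type label does not mention, so that the identity of the cells is uncertain.

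Actinomycin D stops RNA polymerases, so an mRNA that is short-lived loses share quickly while a stable one keeps or gains share. Many short-lived mRNAs, such as those of immediate-early transcription factors, cytokines and signalling inhibitors, carry AU-rich elements in the 3′ untranslated region (3′ UTR), where proteins of the Zfp36 family recruit the deadenylation machinery. Nat10 places N4-acetylcytidine (ac4C) on RNA, a mark that has been linked to mRNA stability and translation. A positive difference means that an mRNA kept more of its share over the hour in KO than in WT, and a negative one that it kept less. Values are relative: the median difference over 8913 non-immunoglobulin genes with a mean of at least 10 CPM (counts scaled by library size) was set to 0. Levels are given as centred CPM, that is CPM of the non-immunoglobulin gene counts after this centring.

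Total counts were 10051164 to 17274128 per library. ERCC spike-ins, which are added control RNAs, took 0.0584% and 0.0587% of them in KO at 1 h and 0.0226% and 0.0221% in KO at 0 h. In WT they took 2.92% and 2.90% at 1 h and 1.83% and 1.79% at 0 h. Values scaled on the spike-ins therefore rest on far fewer spike-in counts in KO, and the reason for this gap was not tested. In all 8 groups of the series both files name the same alignment in their headers, and the counts of the 2 files of a group differed by slightly more than sampling noise (chi-square of 1.49 to 1.76 per degree of freedom in the 4 groups used, for genes whose summed count reached 20). The p-values below therefore cover the spread between files of a group, not that between separately sorted samples. Immunoglobulin genes took 9.04% and 9.01% of gene counts in KO at 1 h and 6.46% and 6.42% in KO at 0 h, against 25.7% and 25.4% in WT at 1 h and 3.63% and 3.61% in WT at 0 h. All 40 genes of a list of HSC identity genes had a count in each of the 8 libraries. Their summed level without Egr1 was 3437 to 3565 centred CPM in KO and 6891 to 7305 in WT, so that it was lower in KO at both times. In bulk RNA, fewer cells of a type and less RNA per cell cannot be told apart.

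Nat10 itself (ENSMUSG00000027185), on the minus strand of chromosome 2 between bases 103551601 and 103591615 of GRCm39, was measured at 102 and 108 centred CPM in KO at 1 h and at 118 and 122 in KO at 0 h. WT had 129 and 138 centred CPM at 1 h and 106 and 106 at 0 h. The KO libraries were thus below WT at 1 h and above WT at 0 h, so that a lower level in KO at both times was not seen in counts over the whole gene. Its first-hour difference was -0.54 ± 0.066 (log2, SE, adjusted p = 4.43e-08), under the limit of 1 that was required of a call. Which libraries lack functional Nat10 cannot be read from these counts, and directions follow the labels.

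The 3′ UTR sites of 10 mRNAs that fell in at least 1 genotype are shown. They come from GENCODE M21 transcripts (GRCm38), are written 5′ to 3′ on the transcript strand, and carry in capitals each copy of the heptamer TATTTAT, the core of the AU-rich element, that lies within the window shown. The first 4 belong to mRNAs that fell in both genotypes without a called difference, and the other 6 to mRNAs with a called negative difference. Of these 6, Nfkbia and Il10 fell in KO only. Some mRNAs with a called positive difference also hold the heptamer and are not shown, among them Slc45a3 and Tnfrsf22 with 2 copies each and Thbs1 with 3.
Fos, chr12:85477103-85477132, plus strand: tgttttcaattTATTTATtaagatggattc
Socs3, chr11:117966138-117966167, minus strand: ctttgcacataTATTTATATTTATactcag
Zfp36, chr7:28376965-28376994, minus strand: agtgggcccttTATTTATgacgactttatt
Btg2, chr1:134077248-134077277, minus strand: aaatgaagagcTATTTATacatgttttttt
Dusp2, chr2:127338304-127338333, plus strand: acagcactttaTATTTATatagaacattga
Errfi1, chr4:150868861-150868890, plus strand: gttatattactTATTTATgacaccgttaat
Nfkbia, chr12:55489607-55489636, minus strand: ggaccacgtttTATTTATtgtgcttttgat
Il10, chr1:131024385-131024414, plus strand: tctctccgaaaTATTTATtacctctgatac
Epha2, chr4:141328588-141328617, plus strand: cactggaacttTATTTATttctgtttcctc
Pmepa1, chr2:173227207-173227236, minus strand: gggtttagagcTATTTATataaatgctgcg

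A gene was called when its adjusted p (edgeR's quasi-likelihood test, Benjamini-Hochberg adjustment over all genes tested) was under 0.05 and its log2 value was at least 1 in size. Of 20726 genes tested, 2365 (11.4%) had a called positive difference and 4403 (21.2%) a called negative one. Among the 9033 genes with a mean of at least 10 CPM the shares were smaller, with 353 genes (3.91%) positive and 787 (8.71%) negative. All these calls rest on counting the 2 files of a group as replicates. With the files of each group summed and the spread taken from straight lines over the 4 times, edgeR's likelihood ratio test called 0 positive and 0 negative differences, with 181 and 455 at an unadjusted p under 0.05. Over the same 9033 genes, 475 fell (5.26%) and 77 rose (0.852%) in KO, while 450 fell (4.98%) and 505 rose (5.59%) in WT. Over all genes tested, 13.3% fell and 11.0% rose in KO, while 13.6% fell and 25.0% rose in WT. Of the 787 negative differences, 400 belonged to genes that rose in WT and 177 to genes that fell in KO, with 13 in both sets. Of the 353 positive ones, 177 belonged to genes that fell in WT and 26 to genes that rose in KO.

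Most mRNAs that fell in both genotypes had no called difference, as was the case for most genes of their level. Of the genes with at least 10 CPM, 180 fell in both genotypes, and 154 of these 180 had no called difference, 11 a positive and 15 a negative one. Of all 9033 genes with at least 10 CPM, 7893 had no called difference. Over all levels 783 genes fell in both, and there the balance differed, with 106 positive and 49 negative calls, 628 without a call and a median difference of 0.39. Over 333 non-immunoglobulin genes whose 2 changes averaged -1 or less, the median change was -1.47 in KO and -1.43 in WT, and the median difference was -0.05 (interquartile range -0.63 to 0.56). Calls were more frequent here in both directions. Beside 3.95% positive and 7.53% negative calls over the 8913 non-immunoglobulin genes with at least 10 CPM, the 333 had 14.4% positive and 15.3% negative ones. The plot of the 2 changes against each other places these genes in the lower left, on both sides of the diagonal.

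**Figure D1:**
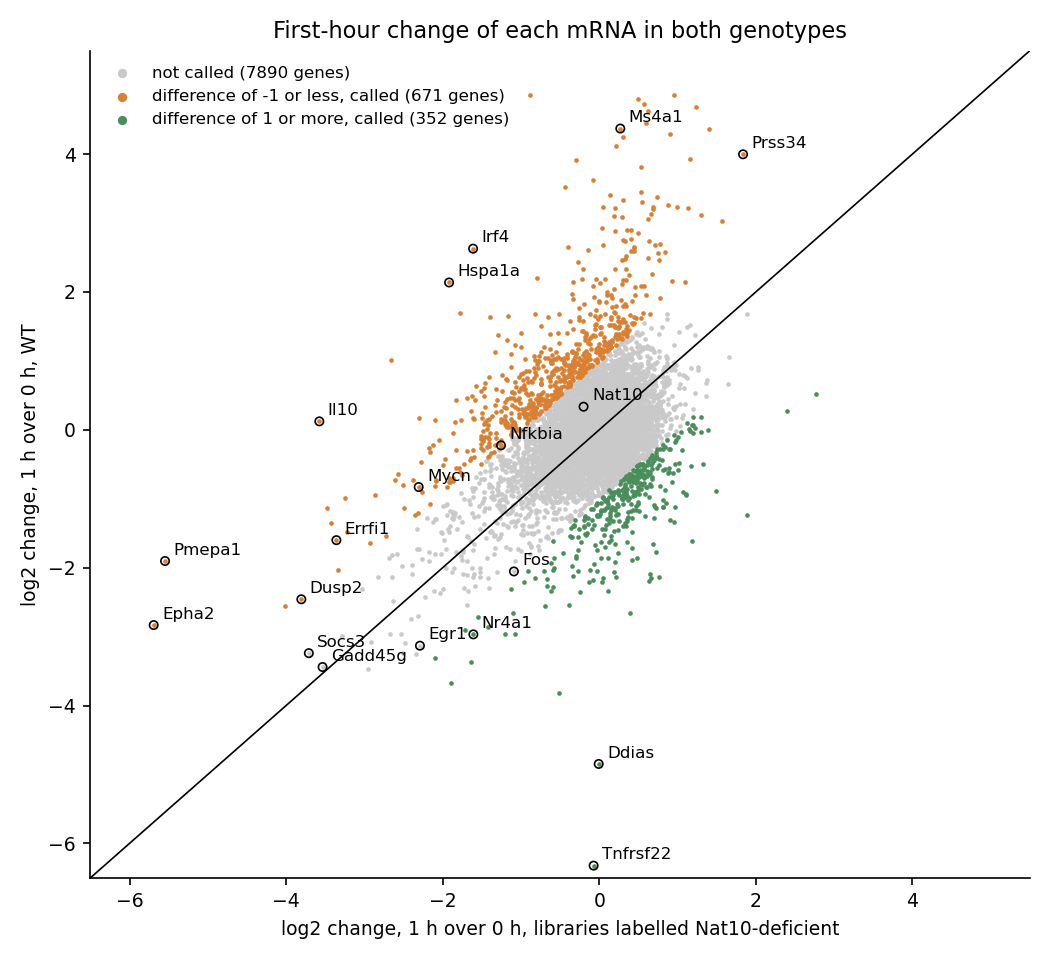
Each point is 1 of 8913 non-immunoglobulin genes with a mean of at least 10 CPM, with its log2 change from 0 to 1 h in libraries labelled Nat10-deficient on the x axis and in WT on the y axis. The line marks equal change, 671 genes with a called negative difference lie above it and 352 with a called positive one below it, and 2 genes lie outside the axes.

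Immediate-early transcription factors, which are switched on within minutes of a signal and have very unstable mRNAs, fell together in both genotypes. Of 26 tested, 20 fell in KO and 19 in WT, beside 13.3% in KO and 13.6% in WT over all genes tested. None of the 26 rose. The median change was -1.57 in KO and -2.09 in WT, beside 0.02 in KO and 0.13 in WT over all genes tested. Only Nr4a1 of the 26 had a called difference, and it was positive. Among genes with at least 10 CPM, where 24 of the 26 lie, 3.91% had a called positive and 8.71% a called negative difference. The median difference of the list was 0.31, and it was -0.01 when libraries were scaled on the ERCC spike-ins, a scaling that moved the median of all genes by -0.32.

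Nr4a1, an orphan nuclear receptor, stood at 202 and 206 centred CPM in KO at 1 h and at 624 and 619 in KO at 0 h, against 348 and 348 in WT at 1 h and 2729 and 2714 in WT at 0 h. KO was lower than WT at both times, and the gap was wider at 0 h. Its difference was 1.36 ± 0.034 (adjusted p = 1.76e-25), from a change of -1.61 in KO and -2.97 in WT. Fos, a subunit of the AP-1 transcription factor, had 735 and 736 centred CPM in KO at 1 h and 1557 and 1573 in KO at 0 h, against 1172 and 1190 in WT at 1 h and 4928 and 4882 in WT at 0 h. It fell in both genotypes, with a difference of 0.97 ± 0.026 that was under the limit. With TMM factors the value for Fos was 1.08 and with DESeq2 size factors 1.07, both past the limit. Egr1, a zinc finger factor, had a difference of 0.84 ± 0.026, with 620 and 616 centred CPM in KO at 1 h and 3015 and 3029 in KO at 0 h, against 888 and 886 in WT at 1 h and 7658 and 7898 in WT at 0 h. All 3 mRNAs began the hour lower in KO than in WT, and the 0 h level is part of the difference. Junb, another AP-1 subunit, fell by 2.03 in KO and 2.37 in WT on the log2 scale, and Fosb changed by -0.70 in KO and -0.62 in WT, both without a called difference.

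Signalling inhibitors and proteins that destabilise mRNA fell in many members of both genotypes, and the called differences in this group were negative. Of 34 tested, 23 fell in KO and 18 in WT, beside 13.3% in KO and 13.6% in WT over all genes tested. None had a called positive difference and 7 a negative one, namely Dusp2, Errfi1, Nfkbia, Btg1, Socs2, Spred2 and Rgs16, of which Socs2, Spred2 and Rgs16 were chosen after their values were seen. That share is close to the 21.2% of all genes and above the 8.71% of genes with at least 10 CPM, and 31 of the 34 had at least 10 CPM. The median difference was -0.10, and 0.02 with TMM factors and 0.01 with DESeq2 size factors.

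Dusp2, a phosphatase that inactivates MAP kinases, had 21.4 and 20.1 centred CPM in KO at 1 h and 291 and 290 in KO at 0 h, against 59.9 and 62.7 in WT at 1 h and 343 and 329 in WT at 0 h. The starting levels were close and the levels at 1 h lay apart, lower in KO. Its difference was -1.35 ± 0.078 (adjusted p = 1.78e-15), from a change of -3.81 in KO and -2.46 in WT. Errfi1, an inhibitor of epidermal growth factor receptor signalling, stood at 15.0 and 15.2 centred CPM in KO at 1 h and 158 and 152 in KO at 0 h, against 67.0 and 80.1 in WT at 1 h and 216 and 226 in WT at 0 h. It fell in both genotypes, further in KO, with a difference of -1.76 ± 0.098. Nfkbia, the inhibitor of NF-κB, had 434 and 442 centred CPM in KO at 1 h and 1043 and 1048 in KO at 0 h, against 460 and 444 in WT at 1 h and 527 and 531 in WT at 0 h. Here KO began higher than WT and ended close to it, and the difference of -1.03 ± 0.034 was under the limit with TMM factors (-0.91) and with DESeq2 size factors (-0.93). Btg1, an adaptor of the deadenylase complex, had a difference of -1.30 ± 0.12.

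The most abundant members of this group fell in both genotypes without a called difference. Socs3, an inhibitor of cytokine signalling, had 164 and 173 centred CPM in KO at 1 h and 2201 and 2198 in KO at 0 h, against 291 and 302 in WT at 1 h and 2788 and 2812 in WT at 0 h. Its change was -3.71 in KO and -3.24 in WT, and the difference of -0.47 ± 0.036 was under the limit. Gadd45g, a stress sensor, changed by -3.53 in KO and -3.44 in WT, with a difference of -0.09 ± 0.049 (adjusted p = 0.106). Zfp36, which itself binds AU-rich elements, changed by -1.58 in KO and -2.26 in WT, and Btg2, an anti-proliferative deadenylase adaptor, by -1.31 in KO and -2.06 in WT. Neither difference, 0.68 for Zfp36 and 0.75 for Btg2, reached the limit.

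**Figure D2:**
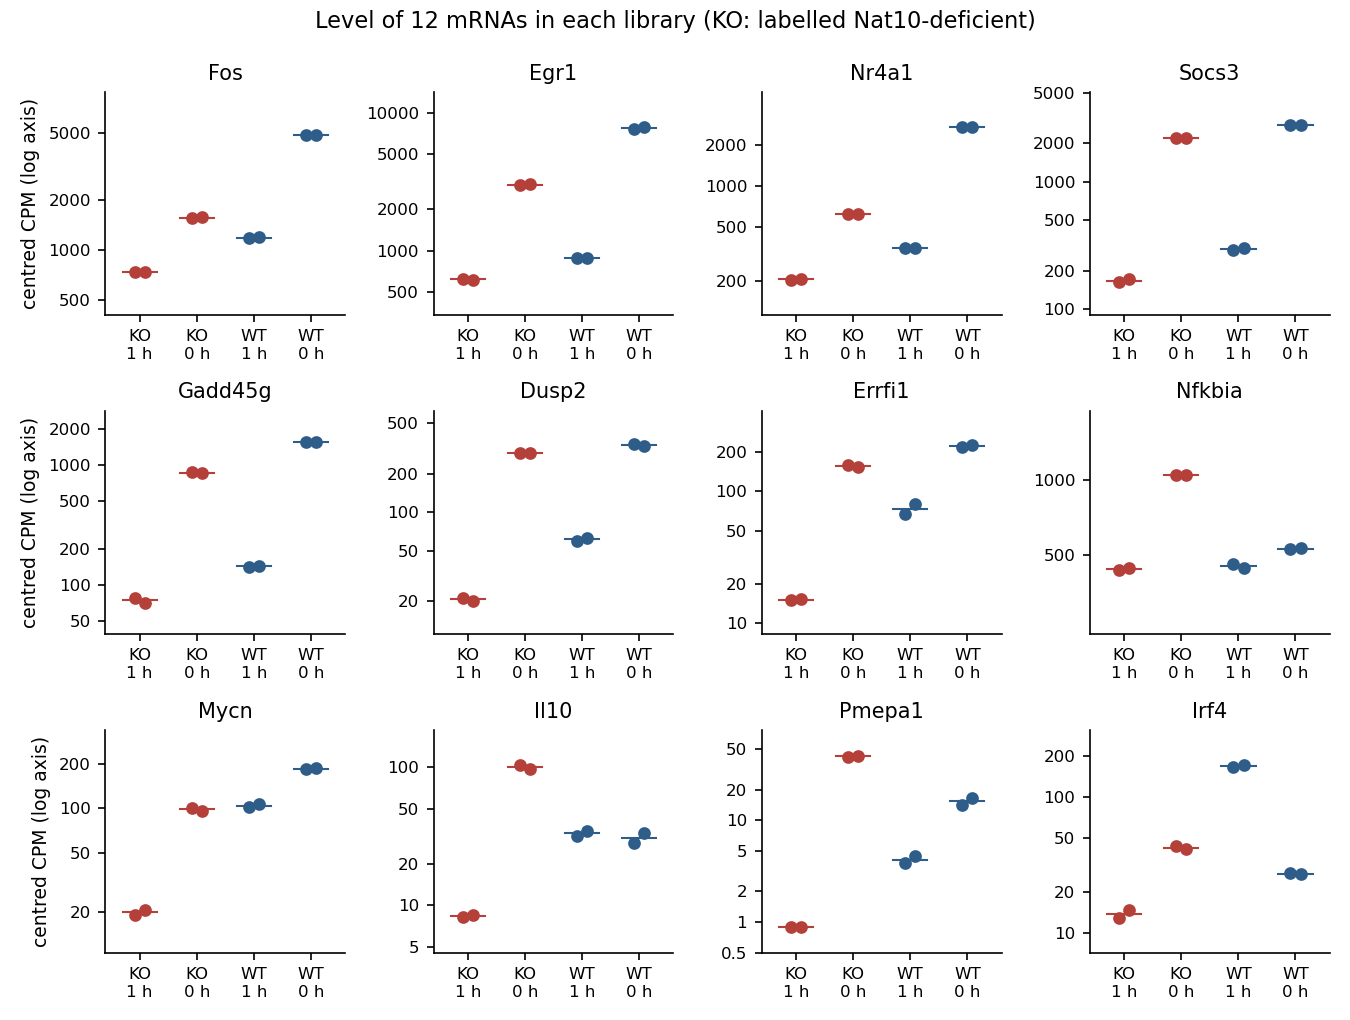
Centred CPM (log axis) of 12 mRNAs in each of the 8 libraries, with 2 points per group, a bar at their mean, red for libraries labelled Nat10-deficient (KO) and blue for WT. Fos, Egr1 and Nr4a1 started lower in KO, Dusp2 and Errfi1 ended lower in KO, and Irf4 was lower at 1 h than at 0 h in KO and higher at 1 h in WT.

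Short-lived regulators of growth and survival fell in fewer members. Of 29 tested, 8 fell in KO and 5 in WT, beside 13.3% in KO and 13.6% in WT over all genes tested. None of the 29 had a called positive difference and 5 had a negative one: Mycn, Pmaip1 and Bcl2l11, and the low-count genes Bbc3 and Bcl2a1b, the last 2 chosen after their values were seen. The negative share is below the 21.2% of all genes tested and above the 8.71% of genes with at least 10 CPM, where 26 of the 29 lie. Mycn, a transcription factor of the Myc family that acts in stem cells, had 19.2 and 20.7 centred CPM in KO at 1 h and 101 and 96.7 in KO at 0 h, against 102 and 107 in WT at 1 h and 183 and 187 in WT at 0 h. Its difference was -1.48 ± 0.083 (adjusted p = 8.05e-16). Bcl2l11, which encodes the pro-apoptotic protein Bim, fell in KO (-1.41) and had a change of -0.19 in WT. Pmaip1, which encodes the pro-apoptotic protein Noxa, had a change of 0.02 in KO and rose in WT (1.40). Myc itself had 268 and 268 centred CPM in KO at 1 h and 446 and 449 in KO at 0 h, against 249 and 241 in WT at 1 h and 420 and 421 in WT at 0 h. The difference for Myc was 0.04 ± 0.040 (adjusted p = 0.413), and that for the cyclin gene Ccnl1 was 0.06 ± 0.038.

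Among mRNAs that fell in at least 1 genotype, the named genes with the most negative differences were Irf4, Hspa1a, Il10, Pkia, Pmepa1, Prdm1, Epha2 and Trps1. Il10, an anti-inflammatory cytokine, had 8.17 and 8.55 centred CPM in KO at 1 h and 103 and 96.4 in KO at 0 h, against 31.9 and 34.7 in WT at 1 h and 28.0 and 33.1 in WT at 0 h. The mRNA fell in KO, and the WT files at the 2 times overlapped. The difference was -3.70 ± 0.14 (adjusted p = 2.31e-20). Pmepa1, an inhibitor of TGF-β signalling, had 0.899 and 0.900 centred CPM in KO at 1 h and 42.2 and 42.8 in KO at 0 h, against 3.81 and 4.41 in WT at 1 h and 14.1 and 16.5 in WT at 0 h. It fell in both genotypes, to 24 summed counts in KO, and its difference was -3.64 ± 0.33. Epha2, an ephrin receptor, also fell in both, to 13 summed counts in KO at 1 h against 90 in WT at 1 h, with a difference of -2.86 ± 0.39.

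Irf4, a transcription factor of activated B cells and plasma cells, stood at 12.8 and 14.8 centred CPM in KO at 1 h and 43.4 and 41.0 in KO at 0 h, against 166 and 172 in WT at 1 h and 27.3 and 27.2 in WT at 0 h. It fell in KO (-1.61) and rose in WT (2.63), giving a difference of -4.24 ± 0.11 (adjusted p = 4.41e-25). Hspa1a, an inducible heat shock protein with a near-identical neighbour, Hspa1b, with which it may share reads, likewise fell in KO (-1.92) and rose in WT (2.14). Prdm1, the master regulator of plasma cell fate, fell in KO (-1.78) and rose in WT (1.69). Both Irf4 and Prdm1 are also on the list of plasma cell markers, whose summed level was 10100 to 10150 centred CPM in KO at 1 h and 7309 to 7314 in KO at 0 h, against 35360 to 35720 in WT at 1 h and 4260 to 4273 in WT at 0 h. Most of this sum was Jchain, chosen after its values were seen. It had 8573 and 8494 centred CPM in KO at 1 h and 5814 and 5833 in KO at 0 h. In WT it had 30730 and 31010 at 1 h and 3120 and 3113 at 0 h. The part of plasma cells in the differences of Irf4 and Prdm1 was not tested.

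Among protein-coding genes with at least 10 CPM, whether or not they fell, the largest negative differences belonged to genes that rose in WT. Lilr4b, a leucocyte immunoglobulin-like receptor gene, had 25.1 and 23.3 centred CPM in KO at 1 h and 43.4 and 45.6 in KO at 0 h, against 149 and 152 in WT at 1 h and 5.58 and 4.79 in WT at 0 h. WT was lowest at 0 h and highest at 1 h, and the difference was -5.73 ± 0.13. The neighbouring paralog Lilrb4a, with which reads may be shared, had -4.21. Il7r, the interleukin-7 receptor of lymphoid progenitors, had -4.32 and Ms4a1, the B cell antigen CD20, -4.10. Both are on the list of B cell markers, whose summed level was 234.5 to 235.6 centred CPM in KO at 1 h and 178 to 183 in KO at 0 h, against 659.5 to 664.1 in WT at 1 h and 98.5 to 102.4 in WT at 0 h, and their part was not tested.

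Among protein-coding genes with at least 10 CPM, the most positive differences came from genes near that lower level, and several were almost absent in WT at 1 h. Slc45a3, a member of the solute carrier family, had 553 summed counts in KO at 1 h and 437 in KO at 0 h, against 0 in WT at 1 h and 275 in WT at 0 h. With the empty group held at 3 counts, it was at least 61.3-fold lower in WT at 1 h than in WT at 0 h. Fgf3, a fibroblast growth factor, had 335 and 719 summed counts in KO at 1 and 0 h, against 0 and 306 in WT, which puts WT at 1 h at least 68.2-fold below WT at 0 h. Ddias, an anti-apoptotic gene, had 25.02 and 24.91 centred CPM in KO at 1 h and 25.07 and 25.09 in KO at 0 h, against 0.740 and 0.689 in WT at 1 h and 21.7 and 20.2 in WT at 0 h, a difference of 4.84 ± 0.27. The files of a pair agreed while 1 group stood apart. Tnfrsf22, a decoy receptor, also stood near 0 in WT at 1 h only, with 5 summed counts, and Abcg4, a sterol transporter, rose in KO (1.89) and fell in WT (-1.23).

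HSC identity genes were called about as often as other genes of their level. Of 40 tested, 3 fell in KO and 2 in WT, and 2 had a called positive and 2 a called negative difference, beside 3.91% positive and 8.71% negative among genes with at least 10 CPM, where 37 of the 40 lie. Gfi1b, a transcriptional repressor of stem cells and the erythroid and megakaryocytic lineages, had 281 and 295 centred CPM in KO at 1 h and 211 and 221 in KO at 0 h, against 120.3 and 104.6 in WT at 1 h and 209 and 210 in WT at 0 h. The groups were level at 0 h and apart at 1 h, and the difference was 1.30 ± 0.060. Ly6a, the Sca-1 antigen, had 65.0 and 66.0 centred CPM in KO at 1 h and 50.7 and 47.1 in KO at 0 h, against 165 and 157 in WT at 1 h and 44.7 and 43.0 in WT at 0 h, a difference of -1.45 ± 0.084. Hoxb4, a low-count homeobox gene chosen after its values were seen, was the other positive member and Mycn the other negative one. The median difference of the list was 0.06, and -0.26 with ERCC scaling.

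Genes that act in RNA decay and modification were called about as often as other genes. Of 40 genes of deadenylation, decapping and decay, 3 had a called positive and 2 a called negative difference, the positive ones including the low-count Cnot11, chosen after its values were seen. Among genes with at least 10 CPM, where 39 of the 40 lie, 3.91% were positive and 8.71% negative. Xrn1, the cytoplasmic 5′ to 3′ exonuclease, had 26.8 and 24.6 centred CPM in KO at 1 h and 34.2 and 34.1 in KO at 0 h, against 80.3 and 76.4 in WT at 1 h and 41.8 and 40.3 in WT at 0 h, a difference of -1.35 ± 0.11. Tob1, another deadenylase adaptor, had a difference of -1.23. Cnot3, a subunit of the CCR4-NOT deadenylase, had 1.27 and Dis3l, an exosome nuclease, 1.17. Of 32 RNA modification enzymes and readers, only the low-count readers Igf2bp2 (positive), Igf2bp1 and Igf2bp3 (both negative) were called, chosen after their values were seen, and the median difference was -0.12.

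Housekeeping mRNAs of the growth machinery, which are known to be long-lived, had few called differences. Of 80 genes of oxidative phosphorylation, 1 had a positive and 1 a negative call, namely Atp5j2 and Cox4i2, both low-count and chosen after their values were seen. Of 40 ribosome biogenesis, 77 mitochondrial ribosomal protein and 39 proteasome genes, 0 were called by edgeR's quasi-likelihood test, while by adjusted p alone 23, 41 and 18 of them were above 0 and 6, 8 and 5 below. The median differences were 0.17 for ribosome biogenesis, 0.30 for mitochondrial ribosomal protein and 0.14 for proteasome genes, and with ERCC scaling they were -0.15, -0.02 and -0.18. By adjusted p alone, which 57.7% of all genes passed, 58 of 80 cytosolic ribosomal protein genes were above 0 and 3 below. Their median difference was 0.21, and -0.11 with ERCC scaling. S phase genes had a median of 0.48 and 1 call of 30, Gins2, a subunit of the replication helicase. G2 and M phase genes had a median of 0.34 with 3 calls of 30, of which Kif2c and Ttk were positive and Kif23 negative. Kif2c, a mitotic kinesin, stood at 78.1 and 77.1 centred CPM in KO at 1 h and 40.9 and 40.5 in KO at 0 h, against 20.9 and 22.2 in WT at 1 h and 37.5 and 35.1 in WT at 0 h, a difference of 1.69 ± 0.11.

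Stress and metabolic lists had calls in a few members each. Of 26 p53 targets, 2 had a called positive and 6 a called negative difference, near the 11.4% and 21.2% of all genes. Trp53inp1, which promotes autophagy and cell death, had 22.7 and 22.1 centred CPM in KO at 1 h and 27.6 and 28.9 in KO at 0 h, against 140 and 148 in WT at 1 h and 34.5 and 30.6 in WT at 0 h, a difference of -2.48 ± 0.11. Of 22 genes of the integrated stress response, Slc3a2, a chain of amino acid transporters, had -1.45, Vldlr, a lipoprotein receptor, -1.49, Mthfd2, a mitochondrial folate enzyme, -1.02 and Nupr1, a stress-induced chromatin protein, 1.04. The pair of enzymes that set fructose 2,6-bisphosphate in glycolysis had differences of opposite sign. Pfkfb4 had 18.3 and 16.3 centred CPM in KO at 1 h and 9.53 and 11.4 in KO at 0 h, against 5.39 and 7.72 in WT at 1 h and 20.3 and 23.7 in WT at 0 h, a difference of 2.49 ± 0.22. Pfkfb3 fell in KO (-1.79) and had a change of -0.55 in WT, a difference of -1.24 ± 0.095. Zinc finger protein genes, a large family of repressors with short-lived mRNAs, had 50 positive and 63 negative calls among 332 tested, near the same background. Their median difference was -0.05, and 0.06 with TMM factors and 0.05 with DESeq2 size factors.

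**Figure D3:**
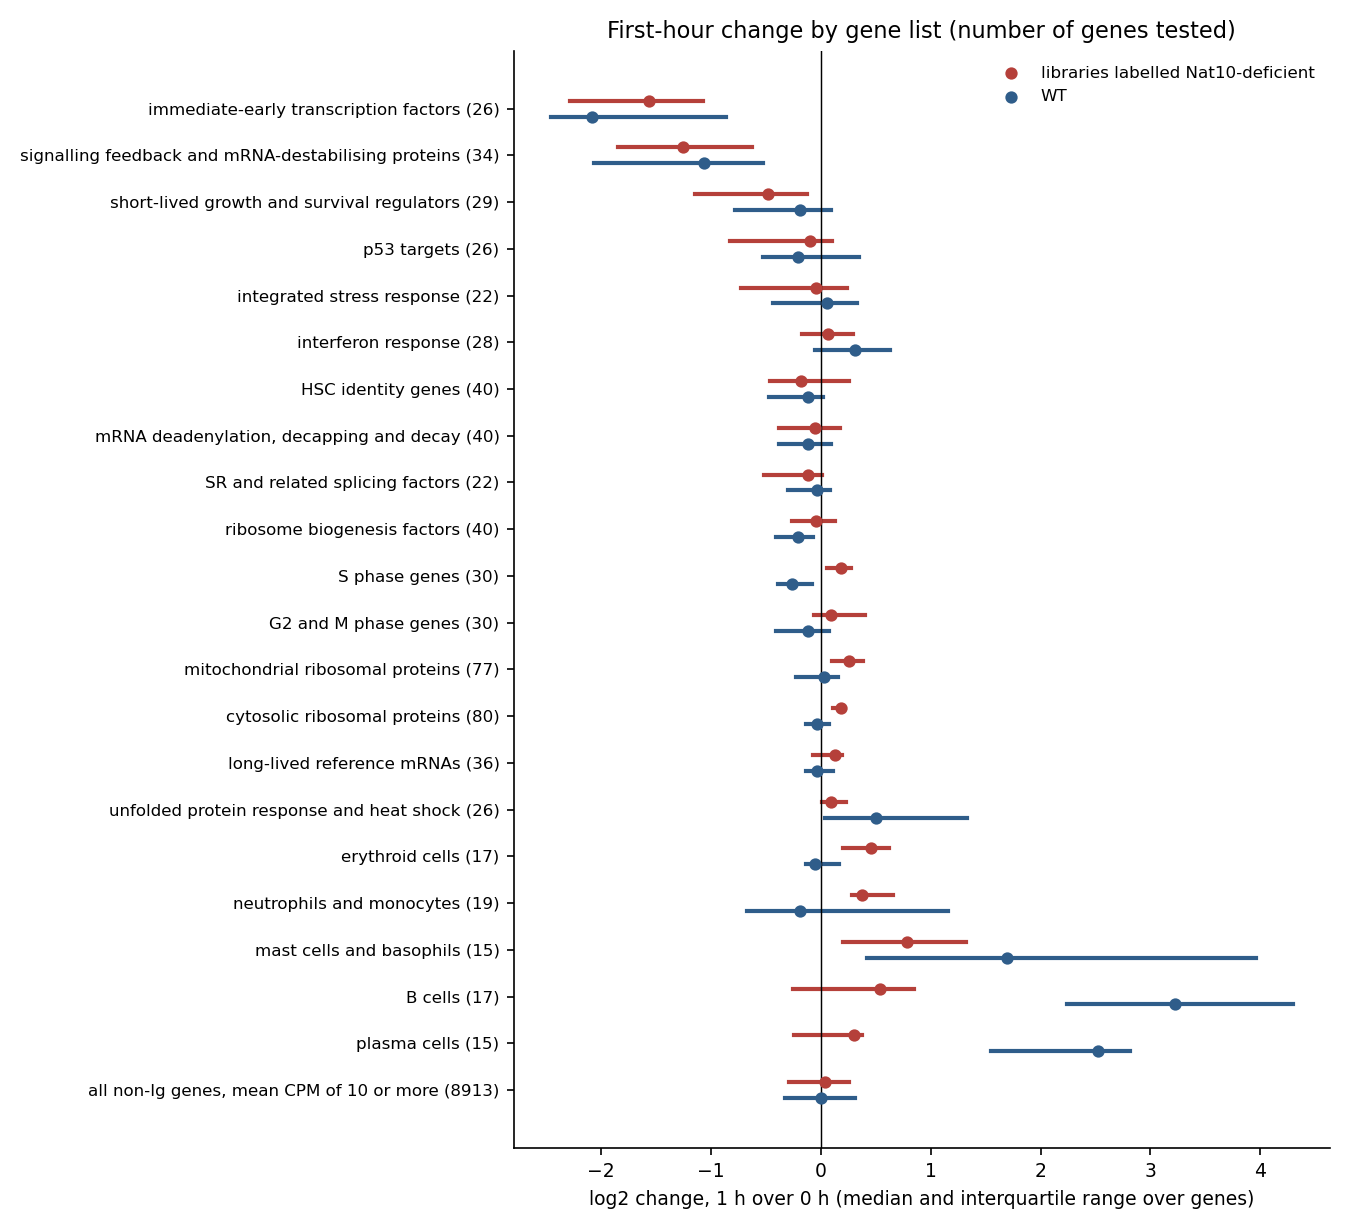
Median (point) and interquartile range (line) of the log2 change from 0 to 1 h over the tested genes of each list, with libraries labelled Nat10-deficient above WT in each row. Immediate-early and feedback genes are far below 0 in both genotypes, most housekeeping lists lie near 0, and the B cell, plasma cell and mast cell and basophil lists lie further above 0 in WT.

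Markers of antibody-producing cells had called negative differences in most members. Of 15 plasma cell genes, 12 rose in WT and none in KO, and 12 had a called negative difference. The median difference was -2.40. Of 17 B cell genes, 14 had a called negative difference and 1 a positive one, the low-count Rag1, chosen after its values were seen. Of 225 immunoglobulin genes tested, 186 had a called negative and 4 a called positive difference. Negative calls were not limited to these cells. Of 14 T and natural killer cell genes, 13 rose in WT, and 9 had a called negative and 0 a positive difference. Of 18 genes of macrophages, dendritic cells, stroma and endothelium, 10 rose in WT, and 10 had a called negative and 2 a positive difference. Only 3 of the 14 and 6 of the 18 had at least 10 CPM. Over all genes tested, 25.0% rose in WT and 21.2% had a called negative difference. Among genes with at least 10 CPM these shares were 5.59% and 8.71%. Cd79a, a chain of the B cell receptor, had 62.9 and 60.3 centred CPM in KO at 1 h and 35.4 and 38.5 in KO at 0 h, against 230 and 217 in WT at 1 h and 21.2 and 21.9 in WT at 0 h, a difference of -2.64 ± 0.095. Of 26 genes of the unfolded protein response and heat shock, 9 rose in WT and none in KO, and 8 had a called negative difference. Herpud1, which acts in endoplasmic reticulum-associated degradation, had a difference of -1.90 ± 0.041 and Edem1, which targets misfolded glycoproteins, -2.40 ± 0.14. Edem1 and Creld2 of this list are also plasma cell markers, and whether the other members moved with these cells was not tested.

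Of 15 markers of mast cells and basophils, 7 rose in KO and 9 in WT. Prss34, a basophil protease, had 594 and 585 centred CPM in KO at 1 h and 165 and 165 in KO at 0 h, against 952 and 957 in WT at 1 h and 59.5 and 60.0 in WT at 0 h. Its difference was -2.16 ± 0.045, and 8 list members had a called negative difference and 2, the low-count proteases Cma1 and Tpsb2, a positive one. Neutrophil and monocyte genes split, with 6 positive and 5 negative calls of 19. Beside both lists stand 11.4% positive and 21.2% negative calls over all genes tested. Among genes with at least 10 CPM the shares were 3.91% and 8.71%. Ms4a3, expressed in granulocyte progenitors, had a difference of 1.06 and Fcnb, a secreted lectin, 1.07. Ly6c2, a monocyte antigen, had -1.49 and Irf8, a monocyte transcription factor, -1.73. Of the erythroid genes, Epor, the erythropoietin receptor, had a called difference of 1.05 and Slc4a1, the anion exchanger of red cells, one of -1.06. The plot of summed marker levels shows that the neutrophil and monocyte sum was higher at 1 h than at 0 h in KO and lower at 1 h in WT. Mpo and Elane, chosen after their values were seen, made up most of the WT sum. In WT, Mpo had 2142 and 2083 centred CPM at 1 h and 3370 and 3423 at 0 h. Elane had 962 and 932 in WT at 1 h and 1509 and 1538 in WT at 0 h. By calls, 5 of the 19 members rose and 2 fell in WT.

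**Figure D4:**
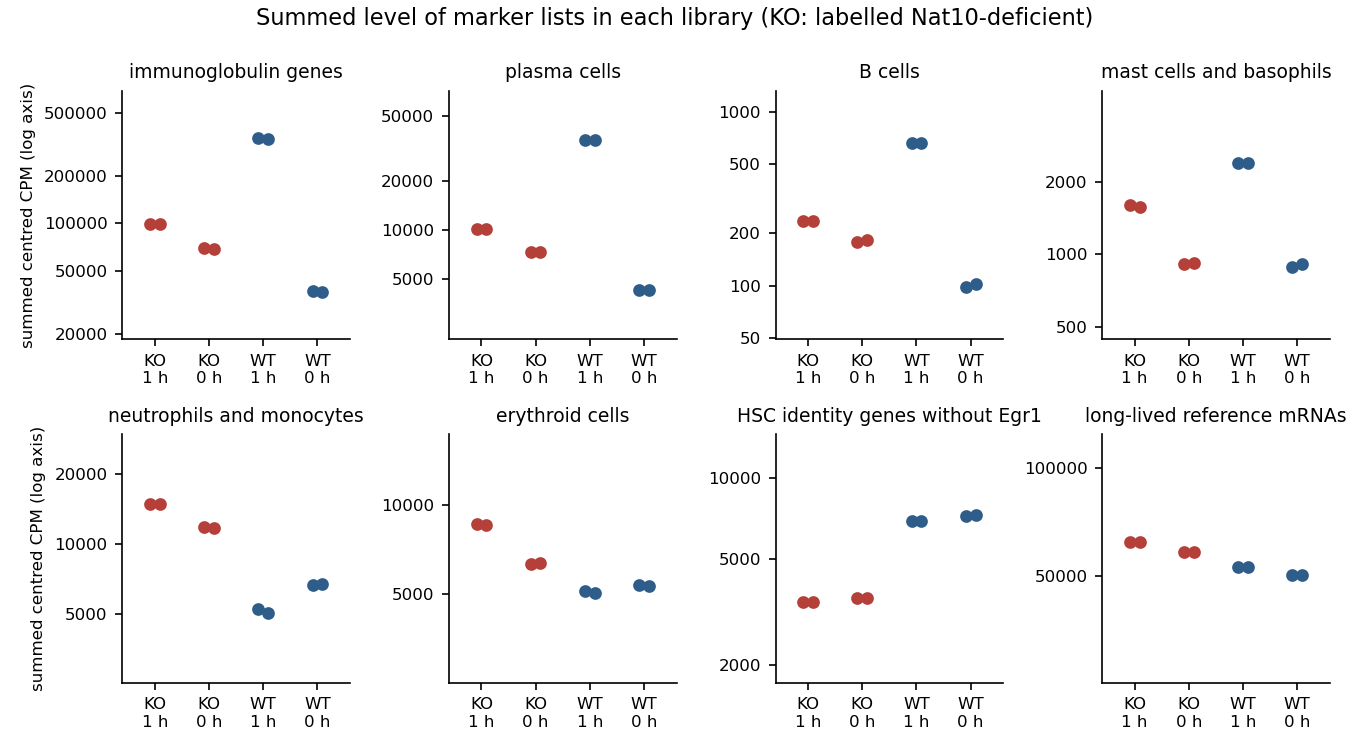
Summed centred CPM (log axis) of 8 gene lists in each of the 8 libraries, with 2 points per group, red for libraries labelled Nat10-deficient (KO) and blue for WT. Immunoglobulin, plasma cell and B cell genes are highest in WT at 1 h and lowest in WT at 0 h, while HSC identity genes are lower in KO than in WT at both times.

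The AU-rich heptamer went with loss in both genotypes. Of 8728 protein-coding genes with at least 10 CPM and a 3′ UTR sequence, 27.7% held TATTTAT on the transcript strand, overlapping copies included, and 7.01% held the nonamer TTATTTATT, which contains it. Of genes with no copy, 3.74% fell in KO and 3.88% in WT. With 1 copy the shares were 6.87% in KO and 6.99% in WT, with 2 copies 11.6% in KO and 8.60% in WT, and with 3 or more copies 17.6% in KO and 9.71% in WT. The median difference was 0.03 with no copy and -0.22 with 3 or more. The 3′ UTR length moved with the copies, with a median of 3340 bases for 3 or more and 712 bases for none, and its part was not tested. Nr4a1, Gadd45g, Mycn and Myc hold no copy in the 3′ UTR searched, and Fos, Socs3, Zfp36 and Btg2, which hold it, had no called difference.

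**Figure D5:**
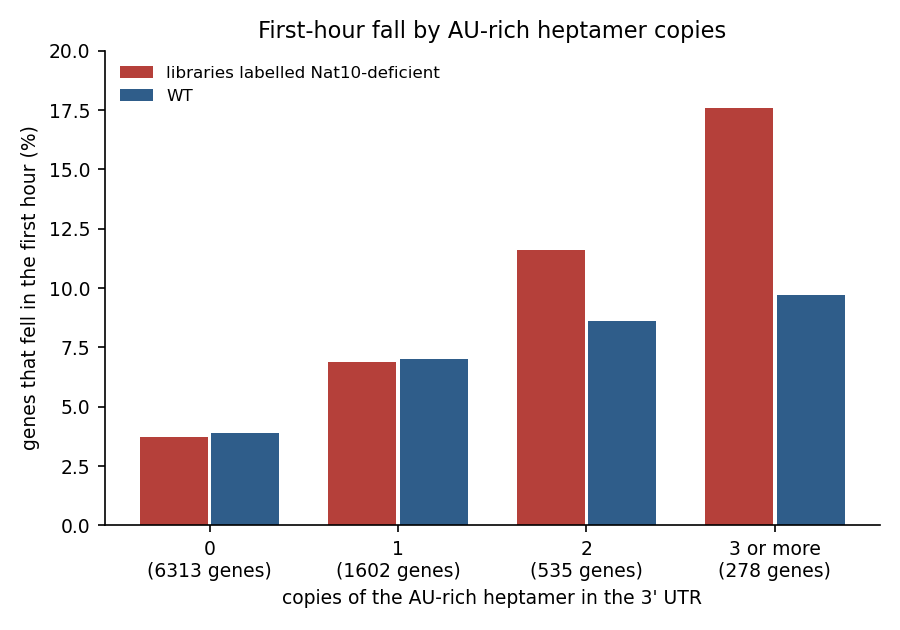
Share of genes (%) that fell by a called log2 change of -1 or less in the first hour, by copies of the AU-rich heptamer in the 3′ UTR, with libraries labelled Nat10-deficient left of WT. The share is 17.6% in KO and 9.71% in WT for 3 or more copies, and 3.74% in KO and 3.88% in WT for none.

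Transcript length went with the change in KO and hardly with that in WT. Across these 8728 genes, which share the 8 libraries and are not independent replicates, Spearman's rho between exonic length and the change was -0.27 in KO and -0.03 in WT, and -0.17 with the difference. The rho of the GC content of the transcript was 0.19 with the change in KO, -0.02 with that in WT and 0.15 with the difference. The share of C at the wobble position of codons, where ac4C has been described, had a rho of 0.10 with the difference. These are descriptions of weak relations.

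The late interval, 3 to 5 h, uses 8 other libraries, fitted on their own, and shares no file with the first hour. Of the 671 non-immunoglobulin genes with at least 10 CPM and a called negative first-hour difference, 438 also had a negative late difference, called in 280, and the median over the 671 was -0.71. With immunoglobulin genes included at this level, 554 of 787 were negative late, with a median of -1.03. Over all levels, immunoglobulin genes included, this lean was not seen. Of 3432 genes with a called negative first-hour difference and a late value, 1725 were negative late and 1707 positive. The median was -0.02, with calls for 1089 and 1011. Of all genes with at least 10 CPM, 33.8% had a called late difference, with both directions counted. Among the 671, 113 had a called positive late difference. Of the 352 non-immunoglobulin genes at this level with a called positive first-hour difference, 192 had a positive late difference, called in 94. Among the 352, 75 had a called negative late difference, and the median was 0.12. Genes at this level with no first-hour call had a median late difference of 0.02. Of 7889 such non-immunoglobulin genes with a late value, 1240 had a called negative and 1133 a called positive late difference. For single genes the late values ran either way, with -2.39 for Il10, -1.64 for Dusp2 and -1.03 for Errfi1, which kept the sign of the first hour, and 0.42 for Mycn, which did not. Immunoglobulin shares at the late times were 3.89% to 24.6% in KO and 49.3% to 59.7% in WT.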

How the data were processed

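The deposited files hold whole-number counts per gene, made by the authors with featureCounts 1.6.3 per the file headers. The submitters' processing notes also name STAR, DESeq2 and GRCm39. Each file lists 55506 entries, 92 of them ERCC spike-ins. Symbols came from a table of gene names by identifier (52081 of 55414 matched), gene classes and 3′ UTR sequences from GENCODE M21 (GRCm38) and gene coordinates from the deposited files (GRCm39). Levels depend on counting without molecular identifiers, so errors cover counting and file spread only. Per the file headers counting ignored strand, so overlapping and antisense genes cannot be told apart, and near-identical paralogs may share reads.

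Counts of the 8 libraries at 0 and 1 h were fitted with edgeR 4.0.16 in R 4.3.3 (quasi-likelihood F test, 1 mean per group, no replicate block, genes kept by filterByExpr, Benjamini-Hochberg adjustment over 20726 genes). Library sizes were counts of genes that are neither immunoglobulin nor ERCC, times factors that set the median contrasts over the 8913 centring genes to 0. A call needs an adjusted p under 0.05 and a log2 value of at least 1. A standard error is the log2 value over the square root of F. DESeq2 1.42.0, other scalings and filters, a replicate block, each file left out and files summed were alternatives. The fit was tested on simulated data.

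Members and lists were chosen with earlier results of these data known. Named genes are Nat10, the 8 largest differences in each direction among protein-coding genes with at least 10 CPM, the same among those that fell, up to 4 called members per list and the 4 most abundant members of the 3 short-lived lists. Lists are described by counts and medians without a set test. Some items are not reported here.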

Additional observations from a re-analysis of the deposited data

Results flagged for a closer look

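The 2 genotypes differed in their first-hour change, by the test of the difference itself, for 353 genes with a positive and 787 with a negative value among genes with at least 10 CPM. Of the named genes, 7 also moved in opposite directions, each past the threshold in both genotypes. Irf4 had a difference of -4.24, Hspa1a of -4.06, Pkia of -3.67, Prdm1 of -3.47, Trps1 of -2.81 and Zfp689 of -2.23, all falling in KO and rising in WT. Abcg4, with 3.12, rose in KO and fell in WT. Irf4 and Prdm1 are plasma cell markers, and the summed level of that list, most of it Jchain, was higher at 1 h in WT.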

How the results depend on the processing

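The counts of called genes were within 1.5 times of those reported under TMM factors, DESeq2 size factors, both other centrings, no filter, the DESeq2 Wald test, all 16 libraries and a replicate block, and no named gene with a called difference changed direction. Without a call, the difference of Fosb was 0.04 with TMM factors and 0.027 with DESeq2 size factors, and that of Gadd45g 0.023 and 0.01. With ERCC scaling that of Ccnl1 was -0.26, of Myc -0.28 and of Ccnd3 -0.17, and with centring on long-lived mRNAs that of Ccnl1 was -0.08 and of Myc -0.10. With the replicate block, 2347 differences were positive and 4317 negative. Deviations of same-numbered files correlated by 0.002 to 0.037. As both files of a group name the same alignment, these values cannot show whether groups share an animal or a sort. Filtering at a mean CPM of 10 left 353 positive and 787 negative differences, 77 genes that rose and 475 that fell in KO, and 505 that rose and 450 that fell in WT. With ERCC counts as library sizes, 821 genes rose and 14295 fell in KO, and 3415 rose and 9529 fell in WT, where the centred fit had 2274 and 2748 in KO and 5178 and 2815 in WT. This scaling moved the median change by -1.42 in KO and -1.10 in WT. With the files of a group summed and the spread taken from straight lines over the 4 times, 0 positive and 0 negative differences were called by edgeR's likelihood ratio test (181 and 455 at an unadjusted p under 0.05). In KO 0 rose and 0 fell (49 and 211), and in WT 0 rose and 1 fell (747 and 275), namely Fgf3. A fold limit of 0.5 gave 3570 positive differences, and a limit of 2 left 1348 that rose and 1588 that fell in KO and 1835 that fell in WT. With no fold limit, 5061 differences were positive and 6907 negative, 6126 rose and 5536 fell in KO, and 8448 rose and 5950 fell in WT. The cause of these shifts was not tested. Leaving out 1 file at a time gave 2078 to 2309 positive and 4006 to 4322 negative differences, 1921 to 2202 that rose and 2416 to 2643 that fell in KO, and 4737 to 5217 that rose and 2486 to 2838 that fell in WT.

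Of the 92 named genes, 13 lost their call with ERCC scaling, 9 with centring on long-lived mRNAs and 79 with files summed. Immunoglobulin and other marker levels differ between the groups, and each group rests on 1 alignment.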
